A study of Mus musculus with 4 samples.

Results

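The data described here are the transcript levels of 10 genes of Notch signalling in Osr1+ cells of the embryonic mouse limb, out of 23284 genes counted. They were taken by name, as the Notch receptors Notch1, Notch2, Notch3 and Notch4, the ligands Jag1, Jag2, Dll1 and Dll4, and the target genes Hes1 and Hey1. All 10 passed the filter on low counts, among 15645 genes tested. GFP+ limb cells of E13.5 C57BL/6J embryos were sorted from 2 Osr1 GCE/+ and 2 Osr1 GCE/GCE embryos, 1 embryo per sample. GCE is a knock-in of GFP and CreERt2 into the Osr1 locus, so both groups carried it, the controls with 1 remaining wild-type allele and the GCE/GCE cells with none, and no GCE-free sample was sequenced. GFP from the Osr1 locus was the gate, with dead cells excluded by propidium iodide, so any cell type with GFP signal could enter it. The comparison asks which transcripts in these cells depend on Osr1, a zinc finger transcription factor of limb connective tissue. Total counts per sample ranged from 52121596 to 61402140, and 3 counts corresponded to 0.0489 to 0.0576 CPM, the count scaled to the library total after TMM correction.

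Notch signalling passes between touching cells. A Delta-like or Jagged ligand on one cell binds a Notch receptor on its neighbour, ADAM proteases and gamma-secretase cut the receptor, and the freed intracellular domain enters the nucleus, where it binds the DNA-binding protein RBPJ and a Mastermind coactivator. Hes and Hey genes, which encode transcriptional repressors, are the classical targets. In developing limbs the pathway is known for holding back differentiation of muscle progenitors and of cartilage precursors, and for shaping arteries and their wall cells.

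RBPJ recognises a short core, here searched as GTGGGAA on both strands. Of 32851 mouse promoters in the RefSeq table (GRCm38.p6), 6.38% held the word between 250 bases before and 50 bases after the annotated start. The table held 59 of the 74 members and pathway genes, and 7 of their 78 promoters (8.97%) held the word. For 8 members it gave 9 promoters, and 0 of them held it, which says only that these letters are not in those windows. Hes1 and Hey1 had no entry. The upstream stretches of Hes5 and Hey2 are printed because both are textbook Notch targets with the word present at 2 places, while their transcripts lay at very different levels in Osr1+ cells. Capitals mark the word or its reverse complement. In Hes5 (chr4:154960673-154960922, plus strand) the matches began 226 and 83 bases before the start, and in Hey2 (chr10:30842781-30843033, minus strand) 207 and 4 bases before it. The second Hey2 match crosses the start, so the last bases printed for Hey2 lie past it.
Hes5: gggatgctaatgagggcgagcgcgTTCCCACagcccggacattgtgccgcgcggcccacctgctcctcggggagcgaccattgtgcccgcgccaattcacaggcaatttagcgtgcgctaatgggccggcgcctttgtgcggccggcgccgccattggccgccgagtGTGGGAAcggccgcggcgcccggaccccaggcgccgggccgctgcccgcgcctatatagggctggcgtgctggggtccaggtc
Hey2: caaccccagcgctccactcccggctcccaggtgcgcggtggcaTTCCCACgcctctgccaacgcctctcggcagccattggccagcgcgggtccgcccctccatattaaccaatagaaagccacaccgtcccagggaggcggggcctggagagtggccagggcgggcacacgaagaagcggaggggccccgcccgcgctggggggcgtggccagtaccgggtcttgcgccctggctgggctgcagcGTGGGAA
Hes5 was counted 12 to 15 times per sample, or 0.207 to 0.268 CPM, and Hey2 293 to 530 times, or 5.60 to 8.98 CPM. The same core thus lay before or across the start of a barely counted and of a clearly counted transcript.

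Some features of the whole data set bear on the values below. Osr1 was at 81.9 and 79.1 CPM in the GCE/+ samples and 11.9 and 13.9 CPM in the GCE/GCE samples, for a log2 fold change of -2.64 with an SE of 0.11 (edgeR quasi-likelihood test, Benjamini-Hochberg adjusted p = 5.94e-05). Xist was at 1142 CPM in GCE/GCE replicate 1 and at 0.572 to 2.63 CPM in the other samples. By this transcript that sample differed from the other GCE/GCE sample as well as from both controls. The part of embryo sex in the values below was not tested. Samples differed in how counts scaled with transcript length. Across 15471 genes, the log2 ratio of GCE/+ replicate 2 over replicate 1 correlated with length at a Spearman rho of 0.438, that of the GCE/GCE replicates at -0.157, and the log2 fold change between genotypes at 0.243, all across genes, which are not independent replicates. The receptor transcripts are the longest among the members (6591 to 10500 bases), so values refitted with offsets for this trend are given for them and for the long pathway genes. The 13 limb mesenchyme markers, Osr1 among them and led by Col3a1 and Col1a2, were all detected and summed to 19180 and 17630 CPM in GCE/+ and 16480 and 14950 CPM in GCE/GCE, 85.4% of the control mean. Of these 13, 10 had log2 fold changes below 0, with a median of -0.12, beside 7676 of 15645 genes tested and a median of 0.003. Osr1 alone passed the adjusted threshold in edgeR, as 1.82% of all genes tested did. DESeq2 called 4 lower (Osr1, Col3a1, Dcn and Lum) and 1 higher (Tbx4), beside 247 lower and 255 higher of 15439 genes. Markers of other cells were present too. Summed over 12 macrophage genes, led by Mrc1 and Csf1r, the level was 362 and 367 CPM in GCE/+ and 228 and 159 CPM in GCE/GCE. Summed over 13 cartilage genes, led by Col2a1 and Col9a2, it was 732 and 1149 CPM against 1596 and 1759 CPM. Their part in the values below was not tested. In such bulk samples, fewer cells of a type and less RNA per cell cannot be told apart.

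Notch2, Notch3 and Notch1 were the abundant receptors, Jag1 the abundant ligand and Hes1 the abundant target, in both genotypes. Between genotypes 0 of the 10 reached the adjusted p threshold of 0.1, whether by edgeR's quasi-likelihood test or by DESeq2, and 0 had an unadjusted p under 0.05 in either tool. Among all genes tested, 1.82% passed the adjusted threshold in edgeR and 3.25% in DESeq2, and 10.5% had an unadjusted p under 0.05 in edgeR. With 2 samples a group, an exact two-sided permutation test of a single gene cannot go below 0.333, so the spread was taken from the fit over all genes.

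**Figure D1:**
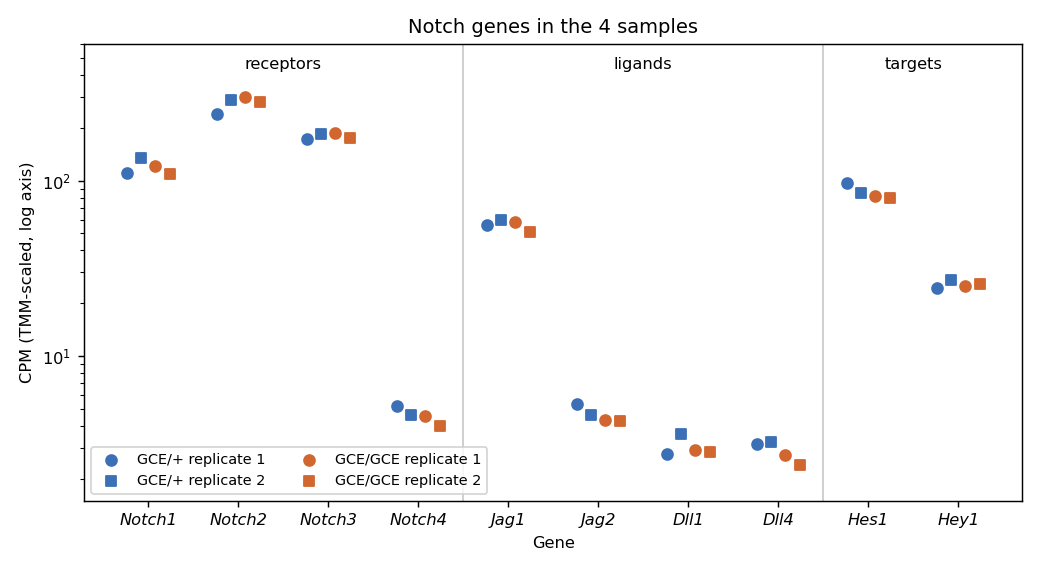
Level of each Notch gene (CPM, log axis) in the 4 samples, GCE/+ in blue and GCE/GCE in orange, replicate 1 as circles and replicate 2 as squares. Notch2 sits between 238.3 and 299.6 CPM and Dll4 between 2.39 and 3.25 CPM, and for 6 of the 10 genes blue and orange points overlap.

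Among the receptors, Notch1 (chr2:26457903-26516663 in GRCm38, minus strand, 34 exons), the founding member with broad roles in cell fate choice, was at 109.8 and 135.1 CPM in GCE/+ and 121.4 and 109.7 CPM in GCE/GCE cells. The groups overlapped, with GCE/GCE replicate 1 between the controls and replicate 2 level with the lower control. The log2 fold change was -0.08 (SE 0.11, 95% interval -0.34 to 0.17, adjusted p = 0.922, edgeR). With offsets for transcript length it was -0.22 (adjusted p = 0.276, edgeR).

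Notch2 (chr3:98013527-98150361, plus strand, 34 exons), which acts in bone, kidney and immune cells among others, was at 238.3 and 289.3 CPM in GCE/+ and 299.6 and 281.4 CPM in GCE/GCE. GCE/+ replicate 1 was the low sample and the other 3 lay close together. Its log2 fold change was 0.14 (SE 0.11, 95% interval -0.11 to 0.39, adjusted p = 0.796, edgeR), and -0.01 with the length offsets. Without GCE/+ replicate 1 it was -0.001, and without GCE/+ replicate 2 it was 0.29.

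Notch3 (chr17:32120820-32166852, minus strand, 33 exons), the receptor best known from smooth muscle and pericytes, was at 173.0 and 183.5 CPM in GCE/+ and 187.7 and 174.3 CPM in GCE/GCE. Replicate 1 was lower in GCE/+ and replicate 2 in GCE/GCE, so the groups overlapped. The interval was the narrowest of the receptors, with a log2 fold change of 0.02 (SE 0.08, 95% interval -0.17 to 0.22, adjusted p = 0.976, edgeR). On the linear scale that interval runs from 0.889 to 1.16-fold, and with the length offsets the log2 fold change was -0.09. Mural cell markers (10 genes, led by Pdgfrb and Mcam, with Higd1b at 0 in every sample) summed to 494 and 507 CPM in GCE/+ and 529 and 466 CPM in GCE/GCE, so the sums overlapped between genotypes as well. Single markers moved in both directions. Of the 9 tested, 4 had log2 fold changes above 0 and 5 below, from -0.80 (Kcnj8) to 0.63 (Rgs5). Kcnj8 had an adjusted p of 0.207 in edgeR and 0.0792 in DESeq2.

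Notch4 (chr17:34564268-34588503, plus strand, 30 exons), a receptor largely of endothelial cells, was far lower, at 5.21 and 4.61 CPM in GCE/+ and 4.55 and 4.0 CPM in GCE/GCE, from 241 to 317 counts a sample. Both GCE/GCE samples lay below both controls, the gap between the nearest pair being small beside the spread within either group. This gave a log2 fold change of -0.20 (SE 0.17, 95% interval -0.59 to 0.19, adjusted p = 0.827, edgeR), and -0.29 with the length offsets.

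Among the ligands, Jag1 (chr2:137081456-137116644, minus strand, 26 exons), the Jagged ligand of many mesenchymal tissues, was at 56.0 and 59.6 CPM in GCE/+ and 57.9 and 50.6 CPM in GCE/GCE. GCE/GCE replicate 2 was the low sample, and the other GCE/GCE sample lay between the controls. The log2 fold change was -0.09 (SE 0.10, 95% interval -0.31 to 0.13, adjusted p = 0.878, edgeR), and 0.002 without GCE/GCE replicate 2.

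Jag2 (chr12:112907819-112929776, minus strand, 26 exons), a ligand that limb ectoderm requires for separating digits, was at 5.31 and 4.61 CPM in GCE/+ and 4.31 and 4.25 CPM in GCE/GCE. Both GCE/GCE samples were below both controls. This corresponded to a log2 fold change of -0.21 (SE 0.17, 95% interval -0.59 to 0.17, adjusted p = 0.796, edgeR). Epithelial markers (10 genes, led by Krt18 and Epcam) summed to 24.5 and 27.02 CPM in GCE/+ and 31.3 and 29.0 CPM in GCE/GCE. Of the 10, 7 had log2 fold changes above 0 and 3 below. Krt18 alone was at 8.84 and 9.47 CPM in GCE/+ and 14.35 and 12.68 CPM in GCE/GCE, so it weighed heavily in the sums. Its adjusted p was 0.114 in edgeR and 0.0374 in DESeq2. It was the only 1 of the 10 called by DESeq2, which called 3.25% of all genes, and edgeR called 0.

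Dll1 (chr17:15367354-15376872, minus strand, 11 exons), the Delta ligand of somites and of developing muscle, was at 2.76 and 3.60 CPM in GCE/+ and 2.91 and 2.83 CPM in GCE/GCE. Both GCE/GCE samples lay between the controls, which differed from each other by 0.38 on the log2 scale. Its log2 fold change of -0.14 (SE 0.20, 95% interval -0.60 to 0.32, adjusted p = 0.928, edgeR) turned to 0.06 without GCE/+ replicate 2. Myogenic markers (8 genes) summed to 126 and 141 CPM in GCE/+ and 158 and 135 CPM in GCE/GCE.

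Dll4 (chr2:119325784-119335962, plus strand, 11 exons), the ligand of arterial endothelium and sprouting vessels, was at 3.17 and 3.25 CPM in GCE/+ and 2.72 and 2.39 CPM in GCE/GCE, from 146 to 193 counts a sample. Here the controls agreed closely and both GCE/GCE samples were below them, their mean being 79.5% of the GCE/+ mean. Of the 10 members it had the log2 fold change of greatest size, -0.33 (SE 0.19), with a 95% interval of -0.76 to 0.10 and an adjusted p of 0.649 in edgeR.

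Among the targets, Hes1 (chr16:30064384-30067796, plus strand, 4 exons), the repressor that reads out Notch and other signals in many progenitors, was at 97.1 and 85.3 CPM in GCE/+ and 81.9 and 79.1 CPM in GCE/GCE. Both GCE/GCE samples were below both controls, and the controls differed from each other by more than the nearest control and GCE/GCE sample did. It had the smallest p of the members, with a log2 fold change of -0.18 (SE 0.09, 95% interval -0.39 to 0.03, unadjusted p = 0.0803, adjusted p = 0.581, edgeR quasi-likelihood test). DESeq2 gave an adjusted p of 0.861. Over 15 settings its adjusted p was lowest, at 0.133, without GCE/+ replicate 2.

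Hey1 (chr3:8663359-8667256, minus strand, 5 exons), a target shared by vessels and skeletal precursors, was at 24.5 and 27.3 CPM in GCE/+ and 25.2 and 25.7 CPM in GCE/GCE. Both GCE/GCE samples lay between the controls. Between genotypes its log2 fold change was -0.02 (SE 0.10, 95% interval -0.26 to 0.21, adjusted p = 0.983, edgeR).

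Levels can be compared between genes only per transcript length, here as TPM, the count divided by transcript length and scaled to a common total. Among receptors the order in every sample was Notch2, Notch3, Notch1 and Notch4. In GCE/+ cells Notch2 was at 57.7 and 73.9 TPM and Notch3 at 54.9 and 61.4 TPM, ranges that overlap, although Notch2 was above Notch3 within each sample. In GCE/GCE cells Notch2 was at 75.6 and 69.5 TPM and Notch3 at 62.1 and 56.4 TPM, without overlap. The difference between these neighbours was not tested. In GCE/+ cells Notch1 followed at 29.4 and 38.2 TPM and Notch4 at 2.01 and 1.88 TPM, each clear of the gene above it. As a share of summed receptor TPM, Notch2 made up on average 41.1% in GCE/+ and 43.9% in GCE/GCE, Notch3 36.6% and 35.8%, Notch1 21.1% and 19.3%, and Notch4 1.23% and 1.03%.

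Jag1 supplied most of the ligand transcripts, at 25.4 and 28.5 TPM in GCE/+ and 27.3 and 23.4 TPM in GCE/GCE, or 79.1% and 80.6% of summed ligand TPM. Jag2, Dll1 and Dll4 lay between 1.65 and 2.69 TPM in all 4 samples, and the range of Dll1 in GCE/+ overlapped those of both others. Jag2, at 2.64 and 2.42 TPM in GCE/+, was above Dll4, at 2.15 and 2.33 TPM, and so it was in GCE/GCE. That order rests on the length used, since with coding length Jag2 made up 6.59% and Dll4 7.74% of ligand TPM in GCE/+. Hes1 was at 168.2 and 155.9 TPM in GCE/+ and 147.9 and 139.8 TPM in GCE/GCE, at the 93.0 percentile of genes tested in GCE/+, and Hey1 at 25.7 and 30.2 TPM and 27.6 and 27.5 TPM. For scale, the median gene tested was at 18.4 to 19.4 TPM. Summed receptor over summed ligand TPM was 4.49 and 4.88 in GCE/+ and 5.16 and 5.38 in GCE/GCE. Both GCE/GCE ratios were above both controls. Receptor and ligand transcripts differ in length, and the part of the length trend in this ratio was not tested.

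**Figure D2:**
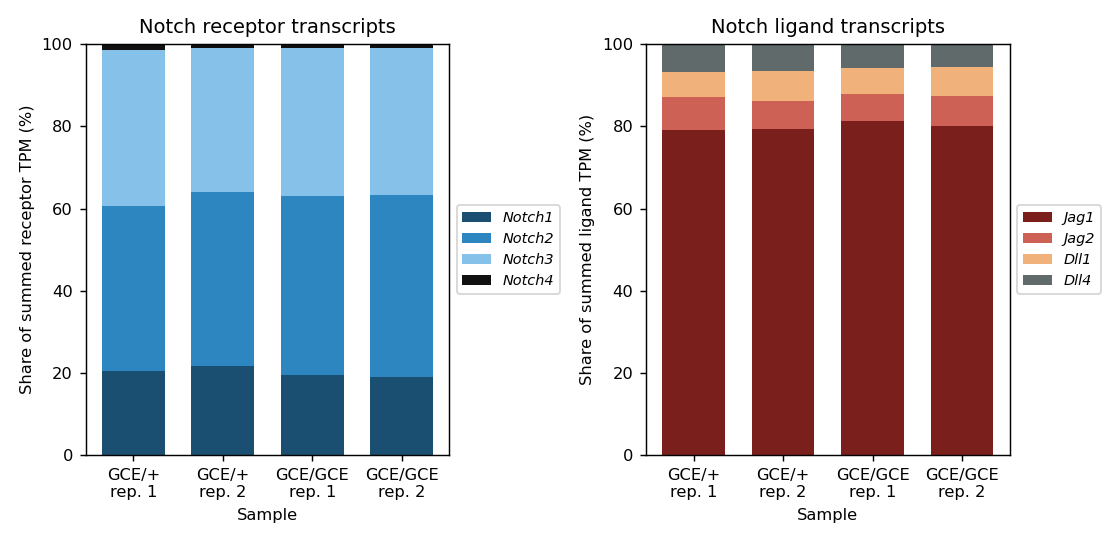
Share of each gene in the summed TPM (%) of the 4 receptors (left) and of the 4 ligands (right), 1 stacked bar per sample. The order of the receptors is the same in each bar, and Jag1 takes between 78.97 and 81.22% of the ligand sum.

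Counted over the members, 8 of the 10 log2 fold changes were below 0 and 2 above, with a median of -0.12 beside 0.003 over all genes tested. With length offsets 1 was above 0, and the median was -0.15 beside -0.001. In 4 genes (Notch4, Jag2, Dll4 and Hes1) both GCE/GCE samples were below both controls, which held for 19.1% of all genes tested. In 0 members were both above, against 19.2% of all genes. The other 6 overlapped. By role, receptors had a median of -0.03, ligands of -0.18 and targets of -0.10 on the log2 scale. The highest 95% upper limit among the members was 1.31-fold (Notch2) and the lowest lower limit 0.592-fold (Dll4).

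**Figure D3:**
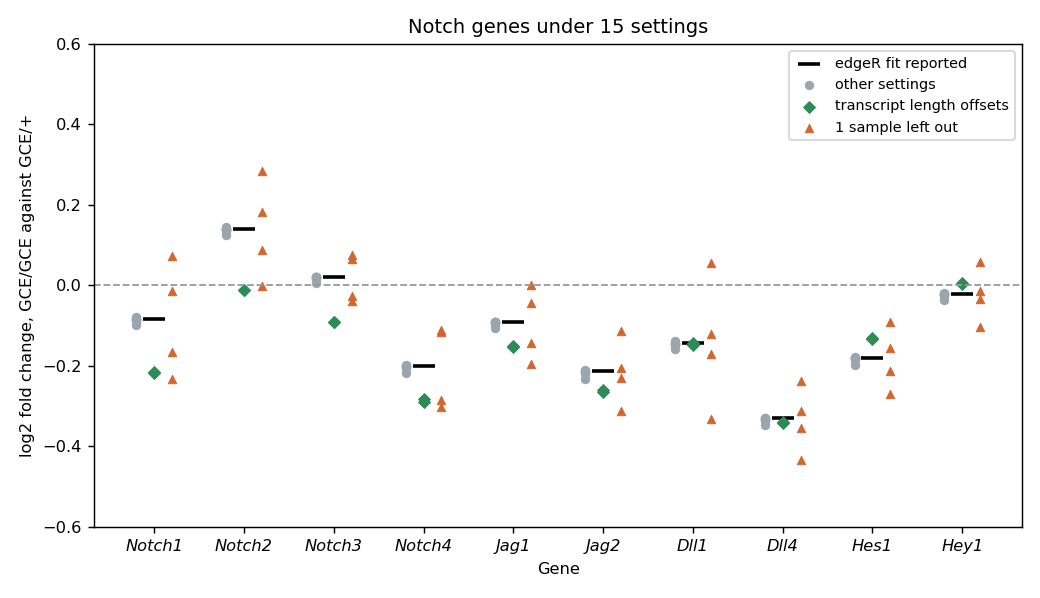
Log2 fold change of GCE/GCE against GCE/+ (vertical axis) for each Notch gene under 15 settings, with the reported edgeR fit as a black bar, fits with length offsets as green diamonds, fits without 1 sample as orange triangles and other settings in grey. Dll4 stays between -0.43 and -0.24 and Notch2 runs from -0.01 to 0.29.

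The rest of the pathway was read from a list of 64 further genes, of which 61 were tested. None passed an adjusted p of 0.1 in edgeR, where the lowest was 0.161, and 1 did in DESeq2. At an unadjusted p under 0.05 in edgeR 1 was higher and 4 were lower in GCE/GCE, beside 879 higher and 761 (4.86%) lower of 15645 genes tested. In 14 genes both GCE/GCE samples were above both controls, in 11 both were below and 36 overlapped. Among all genes tested, 19.2% lay above and 19.1% below in this way. The median log2 fold change was 0.03, and -0.01 with length offsets, under which 30 of the 61 values were above 0 in place of 35. The genes named here are the one that passed in DESeq2, the one of greatest change in each role, and a few, named as such, chosen after their values were seen.

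Among the other ligands, Dlk1, a Delta-like protein without the domain that activates receptors and abundant in embryonic mesenchyme, was at 1855 and 1541 CPM in GCE/+ and 1326 and 1100 CPM in GCE/GCE. Both GCE/GCE samples were below both controls. The log2 fold change was -0.49 (SE 0.15), with an adjusted p of 0.217 in edgeR and 0.00683 in DESeq2, the single tool difference that altered a pathway call. Dner, a non-canonical ligand known from neurons and chosen here after its values were seen, was at 8.39 and 8.15 CPM in GCE/+ and 11.3 and 11.0 CPM in GCE/GCE, so that both GCE/GCE samples were above both controls. Its log2 fold change was 0.43 ± 0.13 (SE; edgeR adjusted p = 0.217).

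The Fringe glycosyltransferases, which modify Notch receptors and so bias them towards Delta or Jagged ligands, are encoded by Mfng, Lfng and Rfng. Mfng was at 2.14 and 2.28 CPM in GCE/+ and 1.38 and 1.05 CPM in GCE/GCE, from 64 to 130 counts. Its log2 fold change, -0.86 with an SE of 0.23 (unadjusted p = 0.0053, adjusted p = 0.161, edgeR), was the greatest in size on the list. Lfng, chosen after its values were seen, was at 4.98 and 5.14 CPM in GCE/+ and 3.67 and 3.73 CPM in GCE/GCE, and its log2 fold change was -0.45 ± 0.16 (SE; edgeR adjusted p = 0.331). Rfng, the most abundant of them by count, had a log2 fold change of 0.03. Differences between the 3 were not tested.

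Of 10 genes of receptor cleavage, 2 had both GCE/GCE samples above and 3 both below the controls, beside 19.2% and 19.1% of all genes tested. Psen2, a catalytic subunit of gamma-secretase, was at 10.7 and 9.96 CPM against 8.25 and 8.77 CPM (log2 fold change -0.28, SE 0.13, adjusted p = 0.529, edgeR). Aph1a, another subunit and the remaining gene lower at an unadjusted p under 0.05, had a log2 fold change of -0.19 with an unadjusted p of 0.0494 in the edgeR fit. Mib1, the ubiquitin ligase that ligand-bearing cells need for signalling, was at 37.7 and 63.5 CPM in GCE/+ and 64.5 and 61.8 CPM in GCE/GCE. GCE/+ replicate 1 alone was low. The log2 fold change of 0.32 ± 0.20 (SE; edgeR adjusted p = 0.704) was 0.74 without GCE/+ replicate 2 (adjusted p = 0.00935, edgeR) and -0.015 without GCE/+ replicate 1.

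In the nuclear complex 8 of 9 genes had log2 fold changes above 0, with a median of 0.10 (7 of 9 and 0.04 with length offsets), and 2 had both GCE/GCE samples above both controls. Among all genes tested, 7969 of 15645 log2 fold changes were above 0, and 19.2% of genes had both samples above. Rbpj itself, chosen after its values were seen, was at 157 and 178 CPM in GCE/+ and 158 and 162 CPM in GCE/GCE, a log2 fold change of -0.07. Maml3, a Mastermind coactivator, was at 16.6 and 23.2 CPM against 26.5 and 24.1 CPM (log2 fold change 0.35, SE 0.16, adjusted p = 0.501, edgeR). Among 14 corepressors, 10 had values above 0, with a median of 0.08 (9 and 0.03 with length offsets). Spen, which holds RBPJ targets silent without Notch, was at 85.5 and 104.7 CPM against 114.6 and 104.3 CPM (log2 fold change 0.20, SE 0.11, adjusted p = 0.628, edgeR). As in Mib1, GCE/+ replicate 1 was the low sample in both. These are long transcripts, and with length offsets the log2 fold change was 0.19 for Mib1 (10231 bases), 0.24 for Maml3 (8288 bases) and 0.03 for Spen (12299 bases). Without GCE/+ replicate 2, leaving replicate 1 as the control, 6 pathway genes passed the adjusted threshold (Dlk1, Mib1, Maml3, Ep300, Crebbp and Spen), and 961 genes in all did. Without GCE/GCE replicate 1, 3 did (Dlk1, Mfng and Dtx4), among 748 in all.

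Of the negative regulators, Dtx4, a Deltex ubiquitin ligase, was at 30.1 and 29.0 CPM in GCE/+ and 27.3 and 20.9 CPM in GCE/GCE (log2 fold change -0.29, SE 0.13, adjusted p = 0.504, edgeR). Nrarp, a feedback inhibitor induced by Notch and chosen after its values were seen, had a log2 fold change of -0.26 (adjusted p = 0.796, edgeR). Of the 7 other targets, Hes2, Hes3 and Hes7 stayed at 0.121 CPM or less in every sample and were not tested. Hey2, whose upstream sequence is printed above, was at 8.70 and 5.60 CPM in GCE/+ and 8.98 and 8.04 CPM in GCE/GCE, with GCE/+ replicate 2 low (log2 fold change 0.25, SE 0.21, adjusted p = 0.827, edgeR). Heyl, also chosen after its values were seen, had a log2 fold change of -0.08.

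**Figure D4:**
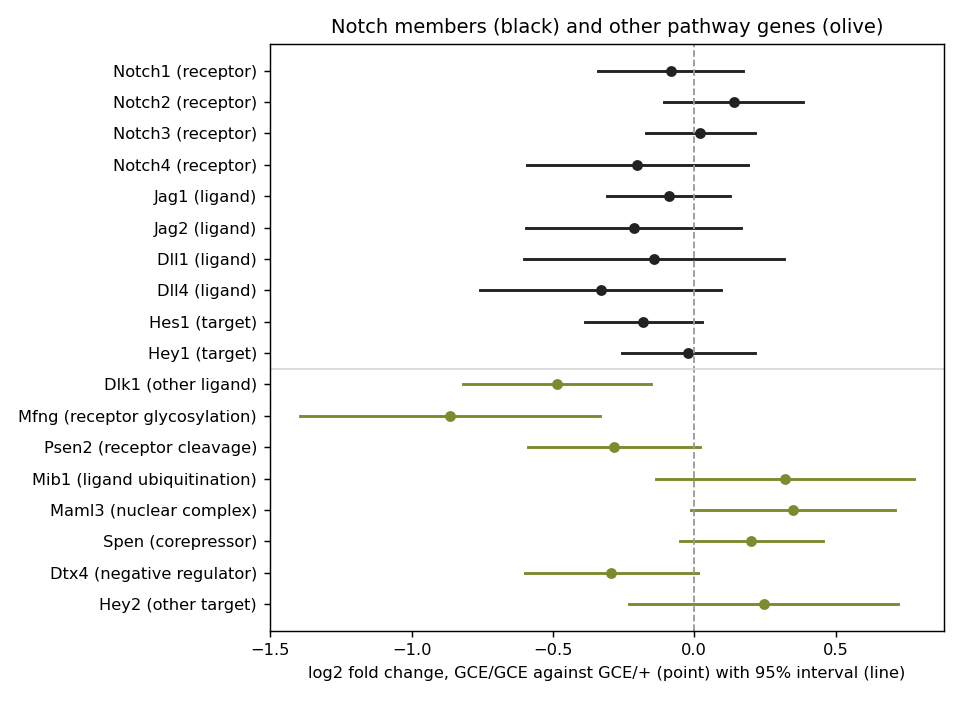
Log2 fold change of GCE/GCE against GCE/+ (points) with its 95% interval (lines) for the 10 Notch genes (black) and the named pathway genes (olive), role in brackets. Each black interval includes 0, and the interval of Mfng lies lowest around -0.86.

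Notch4 and Dll4 are known chiefly from endothelium, so the level of endothelial transcripts in the gate was set beside them. The 16 endothelial markers, led by Kdr and Tek, were all detected and summed to 168.0 and 137.6 CPM in GCE/+ and 139.1 and 118.8 CPM in GCE/GCE, a mean of 84.4% of the controls. None of the 16 passed an adjusted p of 0.1 in edgeR and 1 (Tie1) did in DESeq2. At an unadjusted p under 0.05 in edgeR 7 were lower and 1 (Erg) higher, beside 761 (4.86%) lower and 879 higher of 15645 genes tested. The median log2 fold change was -0.41, with 14 values below 0 and 2 above (Tek and Erg). Tek was at 21.05 and 17.8 CPM in GCE/+ and 21.93 and 21.25 CPM in GCE/GCE. Erg was at 13.38 and 14.15 CPM in GCE/+ and 16.73 and 18.43 CPM in GCE/GCE. As a percentage of the endothelial sum, Notch4 was 3.10 and 3.35 in GCE/+ and 3.27 and 3.37 in GCE/GCE, and Dll4 was 1.89 and 2.36 against 1.96 and 2.01. Jag2 was 3.16 and 3.35 against 3.10 and 3.57. Hes1, a gene of many cell types, was 57.8 and 62.0 against 58.9 and 66.6, and Lfng 2.96 and 3.74 against 2.64 and 3.13. On this scale the groups of all 5 genes overlapped, unlike in CPM. The sum itself overlapped between genotypes, at 137.6 CPM in GCE/+ replicate 2 and 139.1 CPM in GCE/GCE replicate 1. Dividing by such a sum can by itself make groups overlap, so these ratios cannot decide which cells held the transcripts. The sum includes Tek and Erg, which were higher in GCE/GCE. Percentages of a sum without them were not computed, so the overlap may depend on the markers chosen.

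Mfng remained separated on the endothelial scale, at 1.27 and 1.65% of the sum in GCE/+ and 0.991 and 0.880% in GCE/GCE. Of the 12 macrophage markers, 10 were lower in GCE/GCE at an adjusted p under 0.1 in edgeR, beside 145 of 15645 genes tested. As a percentage of the macrophage sum, Mfng was 0.590 and 0.621 in GCE/+ and 0.604 and 0.659 in GCE/GCE, which overlap, whereas Lfng was 1.38 and 1.40 against 1.61 and 2.35. These ratios were added after the values were seen, and the part of endothelial cells or macrophages in the levels of Notch4, Dll4, Jag2, Hes1, Lfng or Mfng was not tested.

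**Figure D5:**
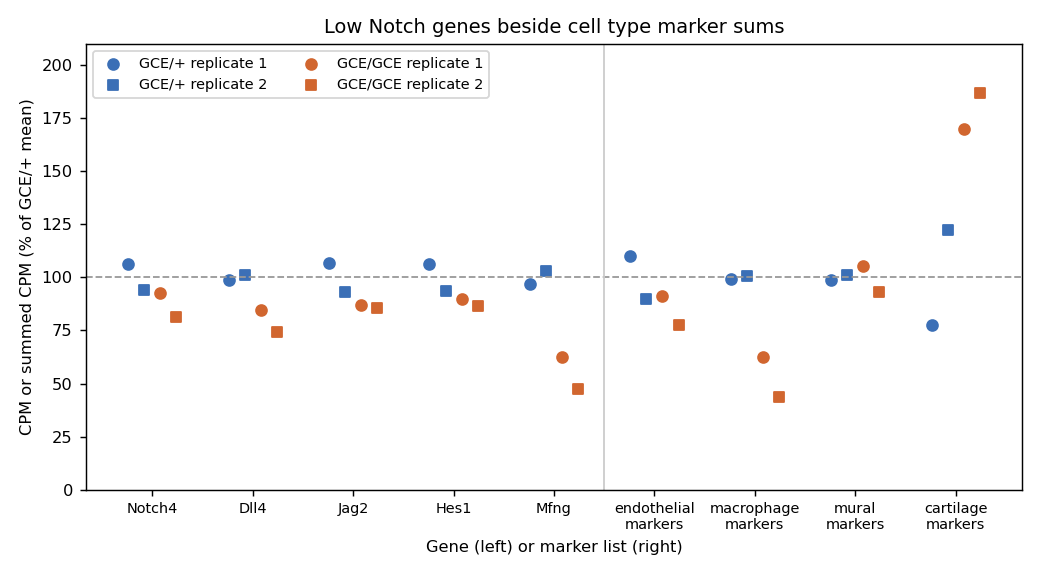
CPM of 5 Notch pathway genes (left) and summed CPM of 4 marker lists (right) in each sample, as a percentage of the GCE/+ mean (dashed line at 100), symbols as in the plot of levels by sample. The GCE/GCE means are 79.5% for Dll4, 84.4% for the endothelial sum, 53.1% for the macrophage sum and 178% for the cartilage sum.

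Genes whose levels followed the same course over the 4 samples were sought for Hes1 and Dll4 among 13468 genes averaging 1 CPM or more, by the Euclidean distance between centred log2 CPM. Nearest to Hes1 were Ccm2 (distance 0.0103), Tcta (0.0126) and Gpr180 (0.0187). Ccm2 was at 52.5 and 45.9 CPM in GCE/+ and 44.3 and 42.4 CPM in GCE/GCE. Nearest to Dll4 were Efhd2 (0.0212), 9030624G23Rik (0.0292) and Fgf7 (0.0352), a growth factor of mesenchyme, which was at 27.5 and 29.1 CPM in GCE/+ and 23.9 and 21.2 CPM in GCE/GCE. With 4 samples this is a description of likeness only.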

How the data were processed

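RNA of sorted cells was sequenced as 50-bp paired-end reads in 4 samples. The authors mapped reads to mm9 with TopHat2, counted them per gene with HTSeq and deposited raw counts, 1 table per sample. The strand setting is not given in the sources used here, so overlapping and antisense genes may share reads. Counts were tested as deposited with edgeR 4.0.16 (R 4.3.3; filterByExpr, TMM, quasi-likelihood fit, two-sided, Benjamini-Hochberg adjusted p under 0.1 over all 15645 genes tested), without covariates. DESeq2 1.42.0 served as an alternative, as did other scalings, filters, thresholds, a replicate block, length offsets and leaving out each sample. The legacy form of the quasi-likelihood fit was added after seeing the data. The biological coefficient of variation was 0.107. SEs came from the F statistic. The test was tried on 3 sets of simulated counts with 200 changed genes and the same spread for every gene. There edgeR recovered 89% of changes of log2 size 1 and 34% of size 0.5, with 9.3% of calls false. DESeq2 recovered 79% and 33%, with 9.9% false. Changes as small as those of the members, at most 0.33 in size, were not simulated. The counts of replicates differed beyond sampling noise. The edgeR p-values rest on the spread between these 4 embryos, drawn towards that of all genes (2 residual and 6.38 prior degrees of freedom). With 1 sample per embryo, this spread cannot be told apart from differences in sorting or library preparation.

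Lengths and coordinates are those of GENCODE M21 (GRCm38); none was converted from mm9, and 97.9% of the 23284 symbols matched. The transcript with the longest coding sequence was used for TPM. Named genes were the members, pathway genes past the threshold in either tool, the gene of greatest absolute change per role, Osr1, the 2 most abundant genes per marker list, and the 3 genes most alike for 2 members. Outside this rule, Dner, Lfng, Rfng, Aph1a, Rbpj, Nrarp, Heyl and Hes5, those that passed in leave-one-out fits, and single marker genes were named after their values were seen. The members and lists were chosen with earlier results of these data known. Other marker lists gave, as percentages of the GCE/+ mean, 109.7 (myogenic), 117.2 (epithelial), 96.0 (neural crest and glia), 99.3 (mural) and 85.4 (limb mesenchyme).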

Additional observations from a re-analysis of the deposited data

How the results depend on the processing

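No member passed the threshold under any alternative run, with adjusted p of 0.133 to 1. Of 140 alternative member values, 127 kept their direction and 13 did not. With length offsets, without and with the replicate block, the log2 fold change of Notch2 was -0.011 and -0.011, Notch3 -0.09 and -0.09, and Hey1 0.003 and 0.006. Leaving out 1 sample at a time gave -0.232 to 0.073 for Notch1, -0.001 to 0.285 for Notch2, -0.039 to 0.075 for Notch3, -0.196 to 0.002 for Jag1, -0.332 to 0.056 for Dll1, -0.103 to 0.058 for Hey1, -0.015 to 0.742 for Mib1 and -0.034 to 0.595 for Hey2. The causes were not tested.

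Genes past the threshold numbered 285, and 502 in DESeq2, 127 without a filter on low counts, 130 at an adjusted p under 0.05 and 199 to 961 without 1 sample. The replicate block gave 290 and added no member. Same-numbered samples did not deviate together (correlation 0.004 over 9763 genes), so the numbers were not taken as pairs. The legacy quasi-likelihood fit, added after seeing the data, gave 279. Pathway genes past it numbered 0, and 1 in DESeq2, 1 with length offsets and replicate block (Dlk1 in both) and 0 to 6 without 1 sample. A left-out sample leaves 1 in its group, assumed to vary like the others. With coding in place of transcript length, Notch2 made 45.4% and Notch3 32.9% of receptor TPM in GCE/+, Jag1 78.4% and Dll4 7.74% of ligand TPM, and Hes1 78.8% and Hey1 21.2% of target TPM.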
